A study of Rattus norvegicus with 6 samples.

Results

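Hemopexin (Hpx), stefin A2, lipocalin 2 (Lcn2) and tissue inhibitor of metalloproteinases 1 (Timp1) were followed in cultured rat oligodendrocyte precursor cells, the dividing cells that give rise to myelin-forming oligodendrocytes. They are 4 of the 20174 features with a rat Ensembl gene identifier on the chip, and all 4 were found in the deposited table (Hpx, ENSRNOG00000018257; stefin A2, ENSRNOG00000033557; Lcn2, ENSRNOG00000013973; Timp1, ENSRNOG00000010208). The members were chosen from a list of named transcripts with earlier results of these arrays in view. Hpx and stefin A2 were selected on their lower signal in the very contrast described here, since the study listed both among its lowered transcripts, and Lcn2 and Timp1 were set beside them as further genes of the acute-phase response. The differences of Hpx and stefin A2 are therefore given as a description. Calls from fits across all features are counted beside their background, and no p-value is given for a member.

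The cells came from cerebral cortices of Sprague-Dawley rats at embryonic day 15. For 20 h they were treated with an shRNA against VCAM1, a cell-adhesion molecule, or with a control shRNA against firefly luciferase, and 3 one-colour arrays were made for each treatment. The study's methods describe retroviral delivery, which reaches dividing cells, for precursors used in co-culture. How the array cultures received the shRNA and the share of cells that took it up are not given in the sources used here. A pair of VCAM1 shRNAs was made, of which the study went on with VCAM1#1, and the sample labels do not say which of them the arrays belong to. Both groups received an shRNA, so the contrast is between shRNA targets and not with untouched cells. The deposited tables carry identifiers without gene names, the names of the 4 members come from the list they were chosen from, and the lowering of Vcam1 itself and the markers of the labelled cell type were not checked here. The group is called labelled VCAM1 shRNA for that reason. In whole cultures, fewer cells of a type and less RNA per cell cannot be told apart.

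Hemopexin is a secreted glycoprotein that binds free heme in plasma and hands it to cells for uptake. The liver raises it in the acute-phase response, the change in secreted proteins that follows inflammatory cytokines such as interleukin-6. Lipocalin 2 is secreted too and captures siderophores, the small molecules with which bacteria take up iron, and glia raise it under inflammatory stimulation. The other two members inhibit proteases. Timp1 is a secreted inhibitor of matrix metalloproteinases, and stefin A2 belongs to the stefins, inhibitors of cysteine cathepsins that lack a signal peptide and work mainly inside cells, so it is not a secreted acute-phase protein in the strict sense.

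Sequence upstream of the genes was read from RefSeq (assembly GRCr8), in windows of the 250 bases before the annotated start. All 4 members were matched there by symbol. The stefin A windows are shown because the name stefin A2 is ambiguous: 2 RefSeq genes carry Stfa2 as symbol or synonym, Stfa2 and Stfa2l1. They belong to 9 stefin A and cystatin A genes (Stfa3, Csta3, Stfa3l-ps1, Stfa2l1, Stfa2l2, Stfa2, Stfa2l3, Stfa3l1 and Csta), among them a pseudogene. These 9 share a span of chromosome 11 with 7 other genes. The probe sequence is not given in the sources used here, so the stefin A2 feature may read more than 1 of the 9 copies. Capitals in the stefin windows mark the 4 aligned runs of at least 10 bases that both share, the longest of 27 bases. Over the alignment of 279 columns, 186 (66.7%) were identical. The Hpx window is shown as that of the other lowered member, with the letters TATAA in capitals at 30 to 26 bases before the start. For Lcn2 only the far end of the window is shown, where capitals mark a match to the kappa-B motif.
Hpx (GRCr8 chr1:169352156-169352405, - strand): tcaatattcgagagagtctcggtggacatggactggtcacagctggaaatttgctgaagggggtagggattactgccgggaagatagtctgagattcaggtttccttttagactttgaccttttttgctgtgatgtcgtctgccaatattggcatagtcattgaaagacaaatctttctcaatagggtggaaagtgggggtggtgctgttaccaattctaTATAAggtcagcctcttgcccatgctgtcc
Stfa2 (GRCr8 chr11:78049536-78049785, + strand): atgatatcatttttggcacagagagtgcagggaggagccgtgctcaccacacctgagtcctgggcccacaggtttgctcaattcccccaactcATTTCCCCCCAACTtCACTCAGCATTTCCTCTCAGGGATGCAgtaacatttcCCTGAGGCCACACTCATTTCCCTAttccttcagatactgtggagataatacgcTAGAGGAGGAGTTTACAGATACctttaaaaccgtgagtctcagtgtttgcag
Stfa2l1 (GRCr8 chr11:77950203-77950452, - strand): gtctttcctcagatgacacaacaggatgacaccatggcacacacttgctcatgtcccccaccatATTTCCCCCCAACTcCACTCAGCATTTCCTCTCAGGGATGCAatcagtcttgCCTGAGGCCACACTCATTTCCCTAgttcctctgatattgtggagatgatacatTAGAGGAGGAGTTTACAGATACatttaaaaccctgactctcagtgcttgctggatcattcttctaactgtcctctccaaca
Lcn2 (GRCr8 chr3:36081971-36082030, - strand): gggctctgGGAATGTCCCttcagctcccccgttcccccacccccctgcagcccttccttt

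Motifs were searched on both strands of the windows of the 4 members and of Stfa2l1. The STAT letters TTCNNNGAA, the C/EBP letters TTNNGNAAT, the AP-1 letters TGANTCA and the E-box letters CACGTG were in none of the windows, including that of Hpx. Among all 33469 windows of the same length these letters were in 7.67%, 10.9%, 6.34% and 5.59%. The kappa-B motif matched the Lcn2 window alone, at 242 to 233 bases before the start, and 6.33% of all windows held it. TATAA, a motif added after the sequences had been seen, was in the Hpx window and in 24.0% of all windows. No match overlapped another. A match of letters is a description and shows no bound factor.

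All 4 members were detected on every array. Signals are normalized intensities on a linear scale, on which the median of the detected features of each array is 25. The signal of Hpx was between 110 and 257 times the detection limit of its array, that of stefin A2 between 56.5 and 174 times, that of Timp1 between 1080 and 1434 times and that of Lcn2 between 12253 and 18503 times. Each feature is read by a probe of its own, so these values do not rank the transcripts. They place a spot against the limit set by the blank spots. They leave out the local background around the spot, so they do not say how firmly it was measured.

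The arrays differed from each other in ways that bear on single members. The share of features above the detection limit ran from 77.9% to 78.8% in the control group. In the group labelled VCAM1 shRNA it ran from 72.9% on replicate 3 to 84.6%. The local background that the scanner reads around a spot had a median between 55.1% and 85.3% of the spot median over the detected features of an array. It was not subtracted in the authors' signals or in those given here.

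The hemopexin transcript was lower on the arrays labelled VCAM1 shRNA. Its signal on the control arrays was 228, 174 and 189 for replicates 1, 2 and 3. On the arrays labelled VCAM1 shRNA it was 119, 116 and 90.5. Every control array lay above every array of the other group, and the lowest value was that of replicate 3 labelled VCAM1 shRNA. The mean fell from 197 ± 27.8 (SD, n = 3) to 109 ± 15.9 (SD, n = 3), with coefficients of variation of 14.1% and 14.6%. On the log2 scale the difference was -0.86 (standard error 0.23), which leaves 55.1% of the control level. Between same-numbered arrays the log2 difference was -0.93, -0.58 and -1.07.

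Stefin A2 was lower as well. The control arrays gave signals of 100.04, 131 and 97.8. The arrays labelled VCAM1 shRNA gave 46.7, 51.6 and 46.4. The groups did not overlap, and the highest value of each group was that of replicate 2. The mean went from 110 ± 18.8 (SD, n = 3) to 48.2 ± 2.91 (SD, n = 3), and the spread between replicates was 17.1% of the mean in the control group and 6.03% in the other. The log2 difference was -1.17 (standard error 0.23), or 44.3% of the control level. In the 3 pairs it was -1.10, -1.35 and -1.08. With the local background in the correction it was -0.41, with 0.16 in the third pair, and the groups overlapped once the local background was subtracted from the spot.

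The remaining members overlapped between the groups. The signal of Lcn2 was 12214, 12801 and 13395 on the control arrays, a coefficient of variation of 4.61%. It was 13819.6, 12122 and 10059 on the arrays labelled VCAM1 shRNA, which include the highest and the lowest of the 6 values, with a coefficient of variation of 15.7%. The means were 12803 ± 590.5 (SD, n = 3) and 12000.4 ± 1883 (SD, n = 3). The log2 difference was -0.10 (95% confidence interval from limma, -0.62 to 0.41). The pairs went in different directions, with log2 differences of 0.18, -0.079 and -0.41.

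Timp1 had control signals of 959, 931 and 1142. On the arrays labelled VCAM1 shRNA it had signals of 1012, 923 and 1045. These lay between a value just under the lowest control and one below the highest control. The means were 1010.4 ± 115 (SD, n = 3) and 993 ± 63.0 (SD, n = 3). The log2 difference was -0.021 (95% confidence interval from limma, -0.51 to 0.47), with 0.077, -0.012 and -0.13 in the pairs. The intervals reach down to -0.62 for Lcn2 and -0.51 for Timp1 on the log2 scale, so they do not show that the levels of the groups were alike.

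**Figure D1:**
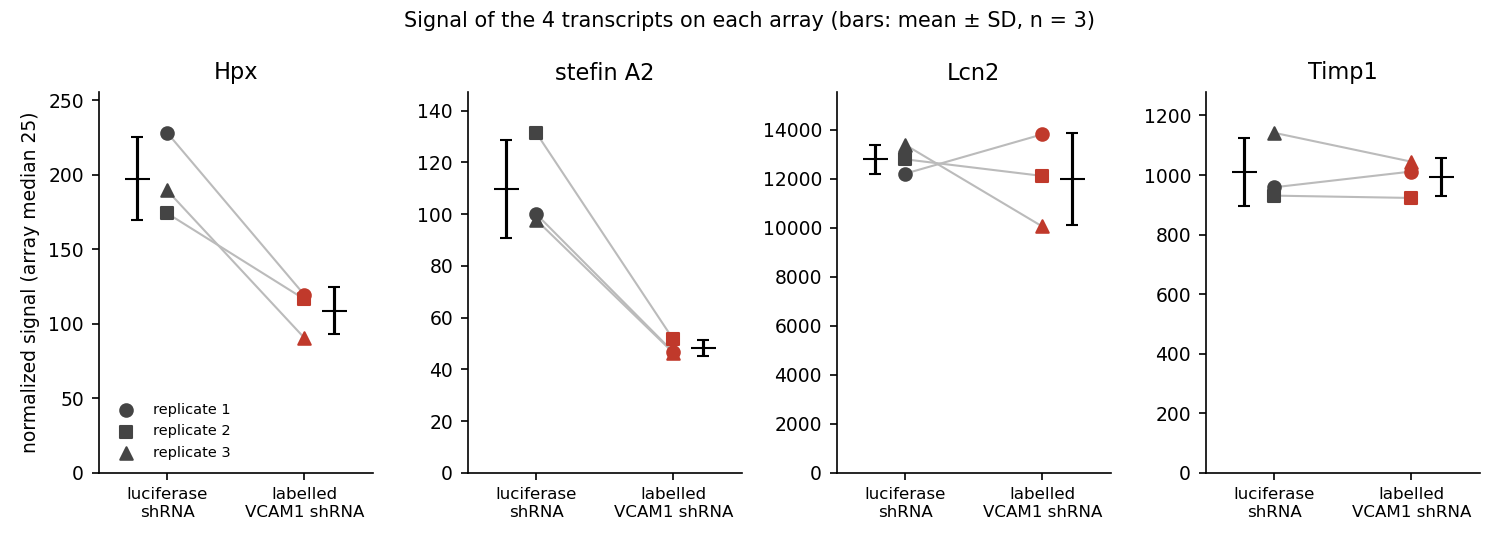
Normalized signal (linear scale, array median 25) of each transcript on the 3 luciferase shRNA arrays (grey) and the 3 arrays labelled VCAM1 shRNA (red), with 1 symbol per replicate number, grey lines joining same-numbered arrays, and mean ± SD at the side. The groups are apart for Hpx (90.5 to 119 against 174 to 228) and stefin A2 (46.4 to 51.6 against 97.8 to 131) and overlap for Lcn2 and Timp1.

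The spread of the log2 signals within groups was 0.21 for Hpx, 0.18 for stefin A2, 0.17 for Lcn2 and 0.13 for Timp1 (pooled SD), where the median over the features tested was 0.34.

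The differences were then placed among those of all features. A limma fit with Benjamini-Hochberg adjustment covered 16141 features, those above the detection limit on 3 or more of the 6 arrays. In this fit 0 of the 4 members had an adjusted p below 0.05, as did 0 features in all (0.0%), while 286 features had an unadjusted p below 0.05. By the methods' t-test on log2 values the numbers were 0 adjusted and 362 unadjusted. A limma fit that blocked on the replicate number called 20 features (0.124%) at the same adjusted threshold, and 1 of the 4 members, stefin A2, was among them. No member was called at that threshold under any other alternative run. Every control array was above every array labelled VCAM1 shRNA for 2 of the 4 members and for 324 features (2.01%). As Hpx and stefin A2 were selected on this contrast, these counts are given beside the background and nothing is read from them.

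The median log2 difference over the features tested was 0.064. The median over the 4 members was -0.48, a value that the selection of Hpx and stefin A2 on this contrast sets. Counted from the most lowered feature, stefin A2 was number 14 and Hpx number 43. Of the features tested, 19.1% had a lower difference than Lcn2 and 31.7% a lower one than Timp1. All 3 pairs were lower for Hpx and for stefin A2, which held for 7.04% of the features tested.

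**Figure D2:**
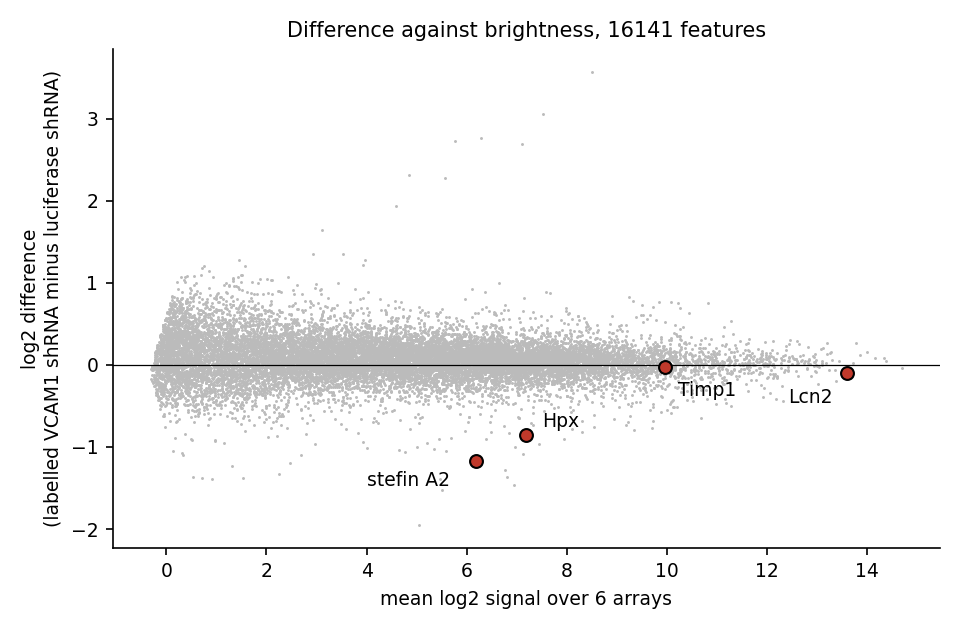
Log2 difference (labelled VCAM1 shRNA minus luciferase shRNA) against the mean log2 signal over 6 arrays for the 16141 features tested (grey points), with the 4 members in red. Stefin A2 (-1.17) and Hpx (-0.86) are numbers 14 and 43 from the most lowered feature, and Timp1 (-0.021) and Lcn2 (-0.10) lie near 0.

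The local background around the 4 spots was set against the spot itself. Around the Hpx spot it was 7.38%, 35.6% and 48.8% of the spot median on the control arrays and 41.0%, 62.4% and 27.0% on the arrays labelled VCAM1 shRNA. With the local background subtracted, the Hpx spot kept 541, 272 and 216 scanner units on the control arrays against 142, 103 and 178 on the others. The groups stayed apart for Hpx in these unscaled values. When the local background was used in the correction (normexp followed by quantile normalization), the log2 difference of Hpx was -1.04, with -1.05, -1.08 and -1.002 in the pairs.

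For stefin A2 the local background came close to the spot. It was 49.2%, 89.1% and 97.8% of the spot median on the control arrays and 93.0%, 90.3% and 84.7% on the arrays labelled VCAM1 shRNA. In scanner units it lay between 95.1 and 293 around this spot, where its median over the features of an array lay between 19.7 and 51.6. Subtraction left 135, 35.9 and 5.13 scanner units on the control arrays and 7.15, 13.8 and 22.2 on the others. In these values the groups overlapped, and replicate 3 was higher on the array labelled VCAM1 shRNA. The pairs had log2 differences of -0.94, -0.45 and 0.16 with the local background in the correction. The part of the local background in the difference of stefin A2 was not tested beyond this alternative.

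The bright members were also affected. In scanner units the local background was 9369 to 25267 around Lcn2 and 649 to 1777 around Timp1, far above the array medians. Whether it follows the brightness of the spot itself was not tested. Around the Lcn2 spot the local background ranged from 31.0% to 89.4% of the spot median, with the highest share on control replicate 2. Around the Timp1 spot it ranged from 27.0% to 90.9%, with the lowest share on replicate 3 labelled VCAM1 shRNA and the highest on replicate 1. The pairs then went apart widely, from -1.03 to 1.26 for Lcn2 and from -1.45 to 0.59 for Timp1 on the log2 scale. The group differences were 0.015 for Lcn2 and -0.15 for Timp1 under this correction, with standard errors of 0.71 and 0.72.

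**Figure D3:**
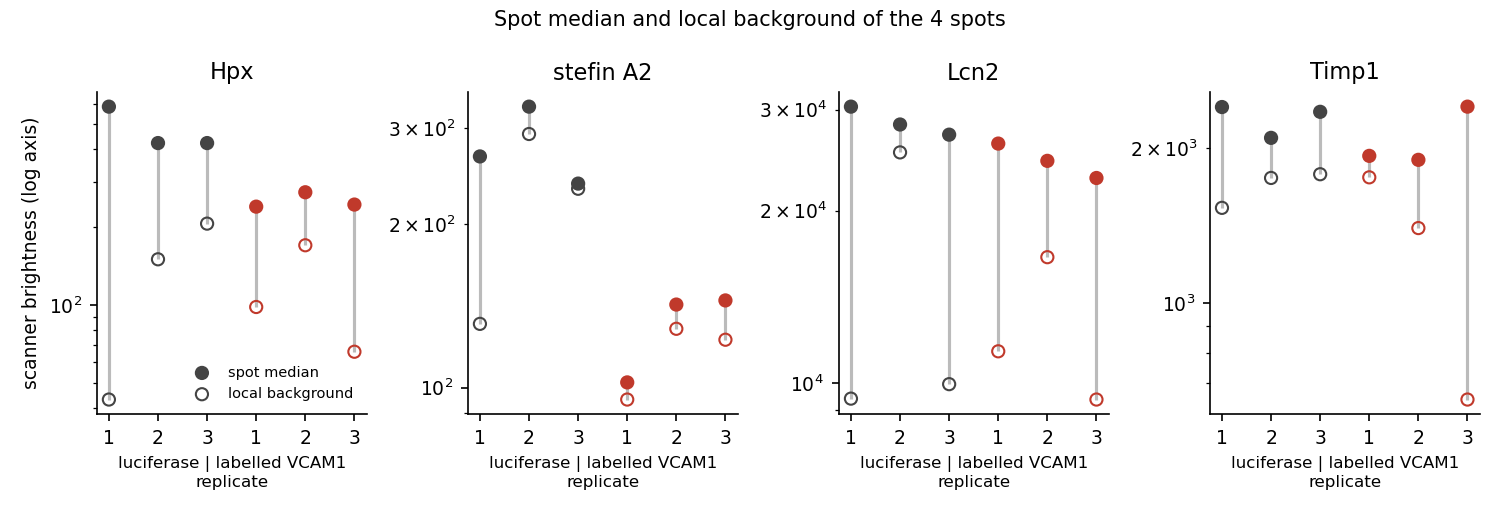
Spot median (filled) and local background (open) of the 4 spots in scanner units on a log axis whose range differs between panels, for the luciferase shRNA arrays (grey) and the arrays labelled VCAM1 shRNA (red). For stefin A2 they lie close together on every array but control replicate 1 (49.2% of the spot median against 84.7% to 97.8% elsewhere), and for Hpx the local background is 62.4% of the spot median or less.

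Features whose pattern over the 6 arrays was most like that of a member were sought among the 14200 other features detected on all of them. The measure was Pearson's correlation of log2 signals, which here also reflects the shared grouping and the shared scaling of the arrays. For Hpx the closest was ENSRNOG00000032844, without a gene name here, with r = 0.995 and mean signals of 39.3 ± 3.86 and 25.2 ± 2.24 (SD, n = 3 each). For stefin A2 the closest was ENSRNOG00000007886, with r = 0.988 and mean signals of 70.5 ± 6.76 and 37.9 ± 3.37 (SD, n = 3 each). The log2 differences of these features, labelled VCAM1 shRNA minus control, were -0.64 and -0.90. A correlation of 0.9 or more was reached by 101 features for Hpx, 51 for stefin A2, 289 for Lcn2 and 33 for Timp1. These correlations rest on 6 points and describe likeness only. How many features would reach 0.9 by chance with so few points was not computed, so nothing is read from these counts.

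Across the alternatives the lower signal of Hpx and stefin A2 kept its sign, while Lcn2 and Timp1 stayed near 0 and changed sign in some. Hpx lay between -1.04 and -0.73 over 16 alternatives and stefin A2 between -1.25 and -0.41. Of these, the detection filters, the missing values in place of the lowest signal and the replicate block could not move a member. All members were detected on every array, and the block is balanced. The deposited table is nearly the same normalization as the one used here. Lcn2 ranged from -0.21 to 0.017 and Timp1 from -0.15 to 0.070, each above 0 in 2 of the 16.

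**Figure D4:**
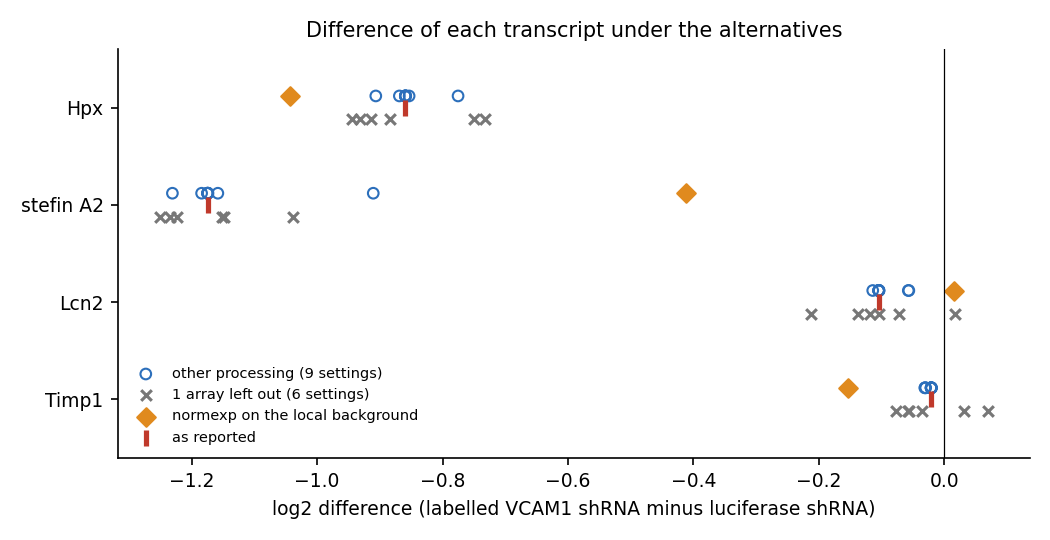
Log2 difference of each transcript as reported (red bar), under 9 other ways of processing (open circles), with normexp on the local background (diamond) and with 1 array left out in turn (6 crosses). Hpx stays at -0.73 or below, stefin A2 moves from -1.17 to -0.41 with the local background, and Lcn2 and Timp1 lie on both sides of 0. The circles of the detection filters, missing values and replicate block lie at the reported value, since these settings cannot move a member.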

How the data were processed

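Total RNA was labelled with Cy5 as amplified RNA and hybridized to 3D-Gene rat oligo chips 20k (Toray), 3 arrays per treatment. Per array, the authors deposited the spot median and the local background intensity as read by the scanner, neither normalized, and a table of normalized intensity on a linear scale, globally normalized to a median of 25. The step before that normalization is not given in the sources used here. It was found by comparison: subtracting the mean of the 5808 blank spots (5% trimmed at each end), calling features detected above 2 SD and scaling to 25 gave the deposited values within 0.18%, with at most 14 differing detection calls per array.

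The same steps were applied to the spot medians here. A signal under the limit was replaced by the lowest one detected on that array, log2 was taken, and the 16141 features detected on at least 3 arrays were fitted with limma (lmFit, eBayes) with a threshold of 0.05 after Benjamini-Hochberg adjustment. Spots that the scanner file marked as not in order (0 to 7 features per array) were treated as undetected. Control and blank spots were left out, and each feature has 1 spot. The labels number the samples 1 to 3 in each group but do not say that they are separate cultures, so p-values measure the spread between these samples, which may be technical. After subtracting group means, arrays with the same number correlated at 0.70, 0.63 and 0.51 across features, and those with different numbers at -0.50 to 0.034. Subtracting the mean of 3 arrays itself lowers the correlations between different numbers when same-numbered arrays correlate. On the same-number values alone, arrays with the same number are treated as pairs. Whether these share a culture or a batch of arrays was not tested. The main fit and its intervals leave this pairing out, and the replicate block uses it. The mean of the blank spots was 17.5 and 13.9 on the arrays numbered 1 and 38.4 to 39.7 on the others. The precision is limited by the number of arrays.

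The members, lists and tests were chosen with earlier results of these data known. The features named were the 4 members and, for each, the feature of highest correlation, printed for at most 2 that were lower. None of the 20174 identifiers was in the reference gene table (0 matched), so the lists of iron, acute-phase, cystatin, metalloproteinase and signalling genes and of cell type markers were not looked up. Alternatives were quantile and 75th percentile scaling, normexp (offset 50) with and without the local background, the deposited table, other detection filters, missing values in place of the lowest signal, log2 of the signal plus 1, the replicate block, trend and robust eBayes, the methods' t-test and each array left out. The fits were checked on simulated data with a smaller spread within groups than the median of these arrays (log2 SD 0.34). That check covers the working of the fits, and not what 3 arrays per group can find. Fits ran in R 4.3.3 (limma 3.58.1, statmod 1.5.0), and matplotlib 3.10.9, scipy 1.17.1, pandas 2.3.3 and numpy 2.4.6 were used for the rest.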

Additional observations from a re-analysis of the deposited data

How the results depend on the processing

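The log2 difference of Hpx moved by less than the spread between replicates under all 16 alternatives, some of which (detection filters, missing values, replicate block) cannot move it. That of stefin A2 was -0.91 under normexp without the local background and -0.41 under normexp with it, against -1.17, and that of Timp1 was -0.15 with the latter. The cause was not tested. The replicate block cannot move the log2 difference, since each number has 1 array in each group. The difference was thus -0.86 for Hpx, -1.17 for stefin A2, -0.10 for Lcn2 and -0.021 for Timp1 as before. Their standard errors went from 0.23, 0.23, 0.22 and 0.22 to 0.25 for each. The count of features with an adjusted p below 0.05, 0 as reported, rose to 20 with the replicate block, 3 under normexp without local background and 1 under normexp with it. The unadjusted count, 286 as reported (98 lower, 188 higher), rose to 874 with the block (210 lower, 664 higher), 838 under normexp without local background (507 lower, 331 higher) and 650 after quantile scaling (378 lower, 272 higher). With 1 array left out, Hpx lay between -0.94 and -0.73, stefin A2 between -1.25 and -1.04, Lcn2 between -0.21 and 0.017 and Timp1 between -0.077 and 0.070, and the unadjusted count between 165 and 1354. It was 165 without control replicate 2, 179 without replicate 2 labelled VCAM1 shRNA and 1354 without replicate 3 labelled VCAM1 shRNA (65 lower, 1289 higher), where the median log2 difference of all features was 0.25 and Lcn2 was at 0.017. Without replicate 1 labelled VCAM1 shRNA it was 360 (268 lower, 92 higher). With the local background in the correction, the standard error was 0.060 for Hpx, 0.25 for stefin A2, 0.71 for Lcn2 and 0.72 for Timp1.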
